A study of Homo sapiens with 6 samples.

Results

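Binding of BRACHYURY (BRA, the product of T) was described at 7 genes of the epithelial-mesenchymal transition (EMT), the transcriptional regulators SNAI1, SNAI2, ZEB1, ZEB2 and TWIST1 and the cadherins CDH1 and CDH2. The genes were taken as a fixed list, and a peak belonged to a gene when its midpoint lay in the gene body or within 50 kb on either side. By this rule 73 of the 54994 peaks in the 4 deposited lists were members, of which 24 came from the R&D Systems FLyA list, 34 from the R&D Systems FLyB list, 4 from the Santa Cruz FLyA list and 11 from the Santa Cruz FLyB list. All cells were of H9, an established line of human embryonic stem cells, kept for 36 h in chemically defined medium with 20 ng/ml FGF2 and 10 μM LY294002, an inhibitor of PI3 kinase. FLyA medium also held 100 ng/ml activin A and gave cells labelled endoderm progenitors, and FLyB medium instead held 10 ng/ml BMP4 and gave cells labelled mesoderm progenitors. Chromatin from each medium was immunoprecipitated with an antibody to BRA bought from R&D Systems or with another bought from Santa Cruz, with 1 library per medium and antibody. Input DNA from each medium was also sequenced and is not used here. Peak positions carry no expression values, so the labelled cell types could not be checked against their marker genes.

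Every peak was 400 bp wide and was listed by position alone, so strong and weak peaks could not be told apart and the sequencing depth is unknown. The study treated the experiments with the different antibodies as replicates and reported a high correlation of binding between them in both media. It described the experiments with the Santa Cruz antibody as noisier and with fewer unique reads. Its later analyses used the R&D Systems data. Here the antibodies are kept apart, since the Santa Cruz lists hold far fewer peaks, so each list rests on 1 library and no test between media was run. A site missing from the list of a medium may still have been bound there. The study also reported lower BRA levels in FLyA cells than in FLyB cells, and the part of this in the peak counts was not tested. An overlap of 1 bp or more counted as a shared site. Intervals are exact (Clopper-Pearson) 95% binomial intervals, which cover counting error only and treat neighbouring peaks as independent. Positions refer to hg19, the build that the submitters' processing notes name, and the first base is counted as 1. Gene starts were known to about 1 kb, and distances from them are given in whole kb in the direction of transcription.

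During EMT, epithelial cells loosen their junctions, lose apical-basal polarity and become migratory. In the gastrulating embryo this happens as epiblast cells pass through the primitive streak, where BRA, a T-box transcription factor, is expressed. SNAI1 and SNAI2 are zinc-finger repressors and ZEB1 and ZEB2 are zinc-finger homeobox repressors that bind E-box sequences in the CDH1 promoter, and TWIST1 is a basic helix-loop-helix factor. CDH1 encodes E-cadherin, the adhesion molecule of epithelia and of pluripotent stem cells, and CDH2 encodes N-cadherin, which replaces it in newly formed mesoderm.

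T-box factors recognise a site with the core AGGTGT, which reads as ACACCT on the other strand. The E-box CAGGTG, which reads as CACCTG on the other strand and is a target of SNAI and ZEB proteins, can overlap it. The sequence under the peaks was not read, since no genome of the peaks' build was used. Promoter sequences were instead taken by gene symbol from RefSeq (GRCh38.p14), which gave 7 windows for ZEB1, 1 for ZEB2 and 2 for CDH2. No window was available for SNAI1, SNAI2, TWIST1 or CDH1, so their promoters were not examined. The peaks were not placed on them because the builds differ. In the 250 bases before the start, 1 of the ZEB1 windows and neither those of ZEB2 nor those of CDH2 held the T-box core on either strand, which 9.57% of the 35116 windows in the table held. The E-box letters were in 2 of the ZEB1 windows and in 17.5% of all windows. The ZEB1 window with the core is shown for its letters, at GRCh38.p14 chr10:31318966-31319215 on the plus strand, with its T-box cores in capitals at positions 8 and 122 counted from its 5′ end, the first of which overlaps an E-box. The first CDH2 window, chr18:28177131-28177380 on the minus strand, is shown because an FLyB peak lay at the start of this gene in the hg19 lists, and it held no match. A match in letters is a description and not a binding site.
ZEB1: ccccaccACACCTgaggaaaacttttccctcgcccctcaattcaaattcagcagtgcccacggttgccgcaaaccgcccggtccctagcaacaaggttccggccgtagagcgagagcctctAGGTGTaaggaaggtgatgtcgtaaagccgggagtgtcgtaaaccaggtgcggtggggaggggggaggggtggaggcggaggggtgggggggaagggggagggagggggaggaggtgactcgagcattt
CDH2: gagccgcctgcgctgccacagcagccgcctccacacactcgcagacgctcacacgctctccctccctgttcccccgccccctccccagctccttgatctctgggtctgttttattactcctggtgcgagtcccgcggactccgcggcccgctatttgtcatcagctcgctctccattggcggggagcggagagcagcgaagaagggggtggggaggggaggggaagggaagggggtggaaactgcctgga

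BRA peaks were concentrated at 3 of the genes. SNAI1, ZEB2 and CDH2 held 40 of the 46 distinct sites that the R&D Systems peaks of both media formed at the 7 genes, and 11 of the 12 sites found in both media. SNAI2, ZEB1 and TWIST1 had 1 site each and CDH1 had 3. In FLyA the R&D Systems list held 10 peaks at ZEB2, 7 at CDH2, 3 each at SNAI1 and CDH1, 1 at TWIST1 and none at SNAI2 or ZEB1. In FLyB it held 12 peaks at ZEB2, 11 at SNAI1, 8 at CDH2, 1 each at CDH1, SNAI2 and ZEB1 and none at TWIST1. The largest difference between the media was thus at SNAI1, with fewer FLyA than FLyB peaks. At ZEB2 and CDH2 the FLyA peaks were only slightly fewer. FLyA peaks were also fewer at SNAI2 and ZEB1 and more at TWIST1 and CDH1, but the counts at all of these genes were small.

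**Figure D1:**
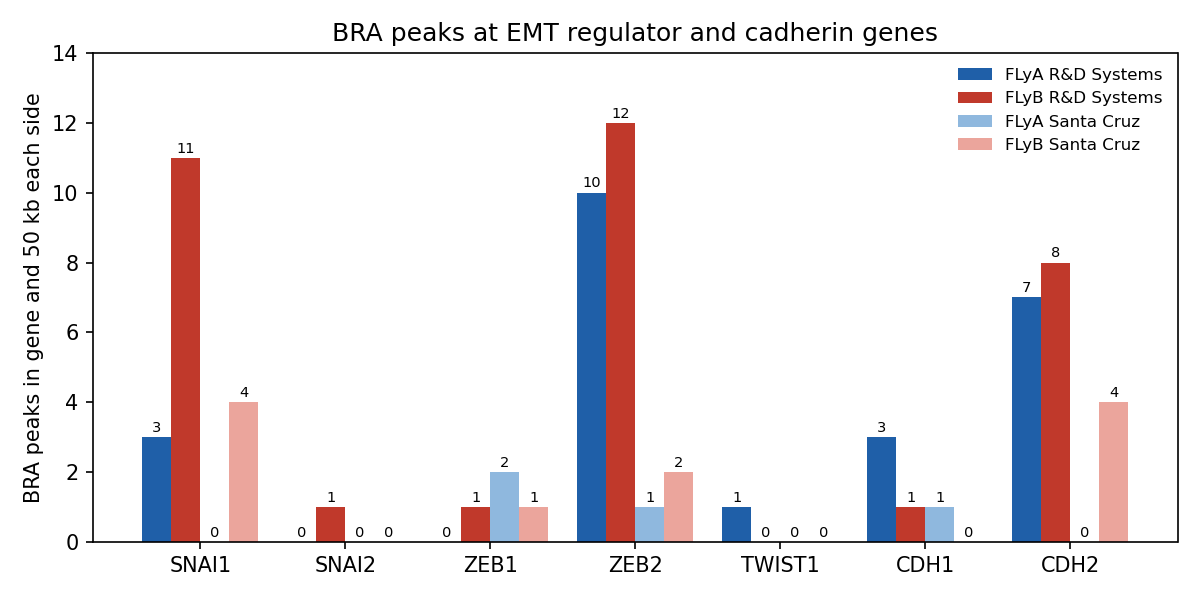
Number of BRA peaks (y axis) whose midpoint lies in the gene or within 50 kb of it, for the 7 genes (x axis) and the 4 peak lists (bars, 1 library each, without replicate error). SNAI1 shows 11 R&D Systems FLyB peaks beside 3 FLyA peaks, whereas ZEB2 and CDH2 show similar numbers in both media.

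The windows differ in length, from 102 kb for TWIST1 to 326 kb for CDH2, and cover 1382 kb in all. Per Mb, the R&D Systems peaks numbered 17.4 in FLyA and 24.6 in FLyB over all 7 windows, against 8.79 and 8.05 over the whole lists. The whole-list densities cover the 2941 Mb between the first and last peaks of the chromosomes, including sequence far from genes. The windows are instead centred on genes that were chosen with earlier results known. Windows around other genes were not compared, so an excess particular to these genes was not tested. At SNAI1 the density was 105 per Mb in FLyB and 28.6 per Mb in FLyA, and at ZEB2 it was 50.8 and 42.4. At CDH2 it was 24.5 and 21.5. At CDH1 the FLyA density was 15.2 per Mb and the FLyB density 5.05, and at ZEB1, which is long and held a single R&D Systems peak, the FLyB density was 3.22, below that of the whole list.

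As a background, tiles of 100 kb along the chromosomes held at least 1 R&D Systems peak in 48.8% of cases in FLyA and 41.7% in FLyB, and at least 1 Santa Cruz peak in 7.53% and 8.78%. Of the 7 windows, which are all longer than a tile, 5 held an R&D Systems FLyA peak and 6 an R&D Systems FLyB peak. The SNAI1 window, of 105 kb, is close to a tile in length. Of the 29406 tiles, 26 (0.0884%) held 11 or more FLyB peaks, the number at SNAI1. For FLyA, 9.51% held 3 or more peaks, the number there in that medium. These cutoffs are SNAI1's own counts, and SNAI1 was the densest of the 7 windows in FLyB. The tiles also include sequence without genes. These shares are thus descriptions and not probabilities.

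SNAI1, which encodes Snail, the repressor of E-cadherin that is active in the primitive streak, had 11 distinct sites spread over 59.5 kb. All 3 of its FLyA peaks overlapped an FLyB peak. The other 8 sites were listed in FLyB only, and none was listed in FLyA only. The sites in both media lay 18 kb before the start (chr20:48581365-48581861), 4 kb before it (chr20:48595582-48596014) and 32 kb after it (chr20:48631581-48631991).

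The FLyB-only sites of SNAI1 began close to the gene and continued beyond its end. One lay 1 kb before the start (chr20:48598505-48598904) and one 1 kb after it, inside the short gene (chr20:48600969-48601368). Past the 3′ end, sites lay 6, 7 and 11 kb from the start. A second group lay further on, at 29 kb (chr20:48629223-48629622), at 33 kb (chr20:48632510-48632909) and at 41 kb (chr20:48640924-48641323). Peaks of both media thus lay on either side of the gene, and within the gene body a peak was listed in FLyB only.

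With the Santa Cruz antibody SNAI1 had 4 peaks in FLyB and none in FLyA, and with 20 kb on each side in place of 50 kb the FLyB count was 1. All 4 overlapped R&D Systems FLyB peaks. They marked the FLyB-only sites at 1, 29 and 33 kb and the site in both media at 32 kb. The count of 0 allows a mean of up to 3 peaks, and the whole Santa Cruz FLyA list held 0.826 peaks per Mb, so it bears little on a difference between the media. The window also holds RNF114 and the lncRNA gene SCREEM1, by name in the GRCh38.p14 gene table, so peaks beyond the ends of SNAI1 cannot be assigned to it by position alone.

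SNAI2, which encodes Slug, had 1 site, an FLyB peak of the R&D Systems list within 1 kb of the gene start (chr8:49833858-49834257). No other list had a peak in its window. The nearest R&D Systems FLyA peak lay 102 kb away. The single SNAI2 peak is thus at the start of the gene and in FLyB only, with 1 antibody.

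ZEB1 had 1 R&D Systems peak, in FLyB, 2 kb inside the gene (chr10:31609600-31609999). The nearest R&D Systems FLyA peak was 186 kb away. The Santa Cruz lists held 2 FLyA peaks and 1 FLyB peak in this window, at chr10:31564463-31564862, chr10:31690574-31690973 and chr10:31639808-31640207, and none of these overlapped an R&D Systems peak of its medium. The antibodies therefore had no ZEB1 site in common.

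ZEB2, also known as SIP1 for its binding to SMAD proteins, had 18 sites, the most of the 7 genes, of which 4 were in both media, 6 in FLyA only and 8 in FLyB only. Most lay inside the gene. The gene body, 136 of the window's 236 kb, held 7 of the 10 FLyA peaks and 9 of 12 in FLyB. The sites in both media were 4 kb before the start (chr2:145281338-145281764) and 41, 75 and 76 kb after it (chr2:145236617-145237092, chr2:145202763-145203183 and chr2:145201888-145202398). Sites of both kinds were interleaved along the gene. Just before the start, FLyA peaks at 3 and 5 kb flanked the site in both media at 4 kb, and these FLyA peaks were only 105 and 603 bp from the nearest FLyB peak.

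Within ZEB2, an FLyA-only peak at chr2:145266605-145267004 and an FLyB-only peak at chr2:145265977-145266376 were 228 bp apart, and were counted as separate sites. The FLyB-only sites at 45 and 46 kb (chr2:145232592-145232991 and chr2:145231615-145232014) and the FLyA-only site at 91 kb (chr2:145186540-145186939) were further from peaks of the other medium, at 3.62, 4.60 and 15.1 kb. The Santa Cruz antibody marked 3 of the 18 sites. Its 2 FLyB peaks fell on the sites in both media at 4 kb before the start and at 75 kb, and its FLyA peak fell on the FLyA-only site at 68 kb (chr2:145210066-145210465). That was the single FLyA-only site among the 7 genes with Santa Cruz support in either medium. The outermost ZEB2 sites were FLyB-only, at 48 kb before the start (chr2:145325313-145325712) and at 141 kb after it (chr2:145137252-145137651). The window also covers the antisense gene ZEB2-AS1 and the lncRNA genes LINC01412 and LINC02993.

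TWIST1 had 1 site, an R&D Systems FLyA peak 9 kb after the start and beyond the 3′ end of this short gene (chr7:19147854-19148253). The nearest R&D Systems FLyB peak was 167 kb away, and no Santa Cruz peak lay in the window. The neighbouring gene FERD3L, which encodes another basic helix-loop-helix factor, is in the same window.

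CDH1 had 3 sites, none of them near its start. The site in both media lay inside the gene at 27 kb (chr16:68797308-68797776), which was also the R&D Systems peak closest to the start. A site in FLyA only lay at 55 kb (chr16:68825453-68825852), and another lay beyond the gene at 106 kb (chr16:68877244-68877643), in a window that also holds CDH3 and TANGO6. The Santa Cruz FLyA list had 1 peak in the gene (chr16:68791362-68791761), which overlapped no R&D Systems FLyA peak. At the E-cadherin gene, therefore, FLyA had 3 R&D Systems peaks and FLyB 1, no site was found with both antibodies, and no peak was listed within 5 kb of the start.

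CDH2 had 11 sites, of which 4 were in both media, 3 in FLyA only and 4 in FLyB only. In contrast to CDH1, BRA peaks lay within 5 kb of the start of the gene in both media. A site in both media was 2 kb before the start (chr18:25758604-25759083), an FLyB-only peak lay within 1 kb of the start (chr18:25757054-25757453) and an FLyA-only peak lay 2 kb inside the gene (chr18:25755226-25755625). The FLyB-only peak was 1.15 kb and the FLyA-only peak 1.43 kb from the nearest peak of the other medium.

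A second group of CDH2 sites lay deep in the gene. Sites in both media were found at 69 kb (chr18:25687878-25688303), 112 kb (chr18:25645016-25645427) and 113 kb (chr18:25643381-25643795), with FLyB-only sites at 65 kb (chr18:25692212-25692611) and 107 kb and an FLyA-only site at 98 kb. The Santa Cruz lists held 4 peaks at CDH2 in FLyB and none in FLyA, with the same limit. The FLyB peaks fell on the sites in both media at 2 kb before the start and at 69 and 113 kb, and on the FLyB-only site at 65 kb. The FLyA-only site at the far end of the window (chr18:25481637-25482036) lay 275 kb from the start, beyond the gene, and an FLyB-only site lay near the gene's end at 224 kb (chr18:25532399-25532798).

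**Figure D2:**
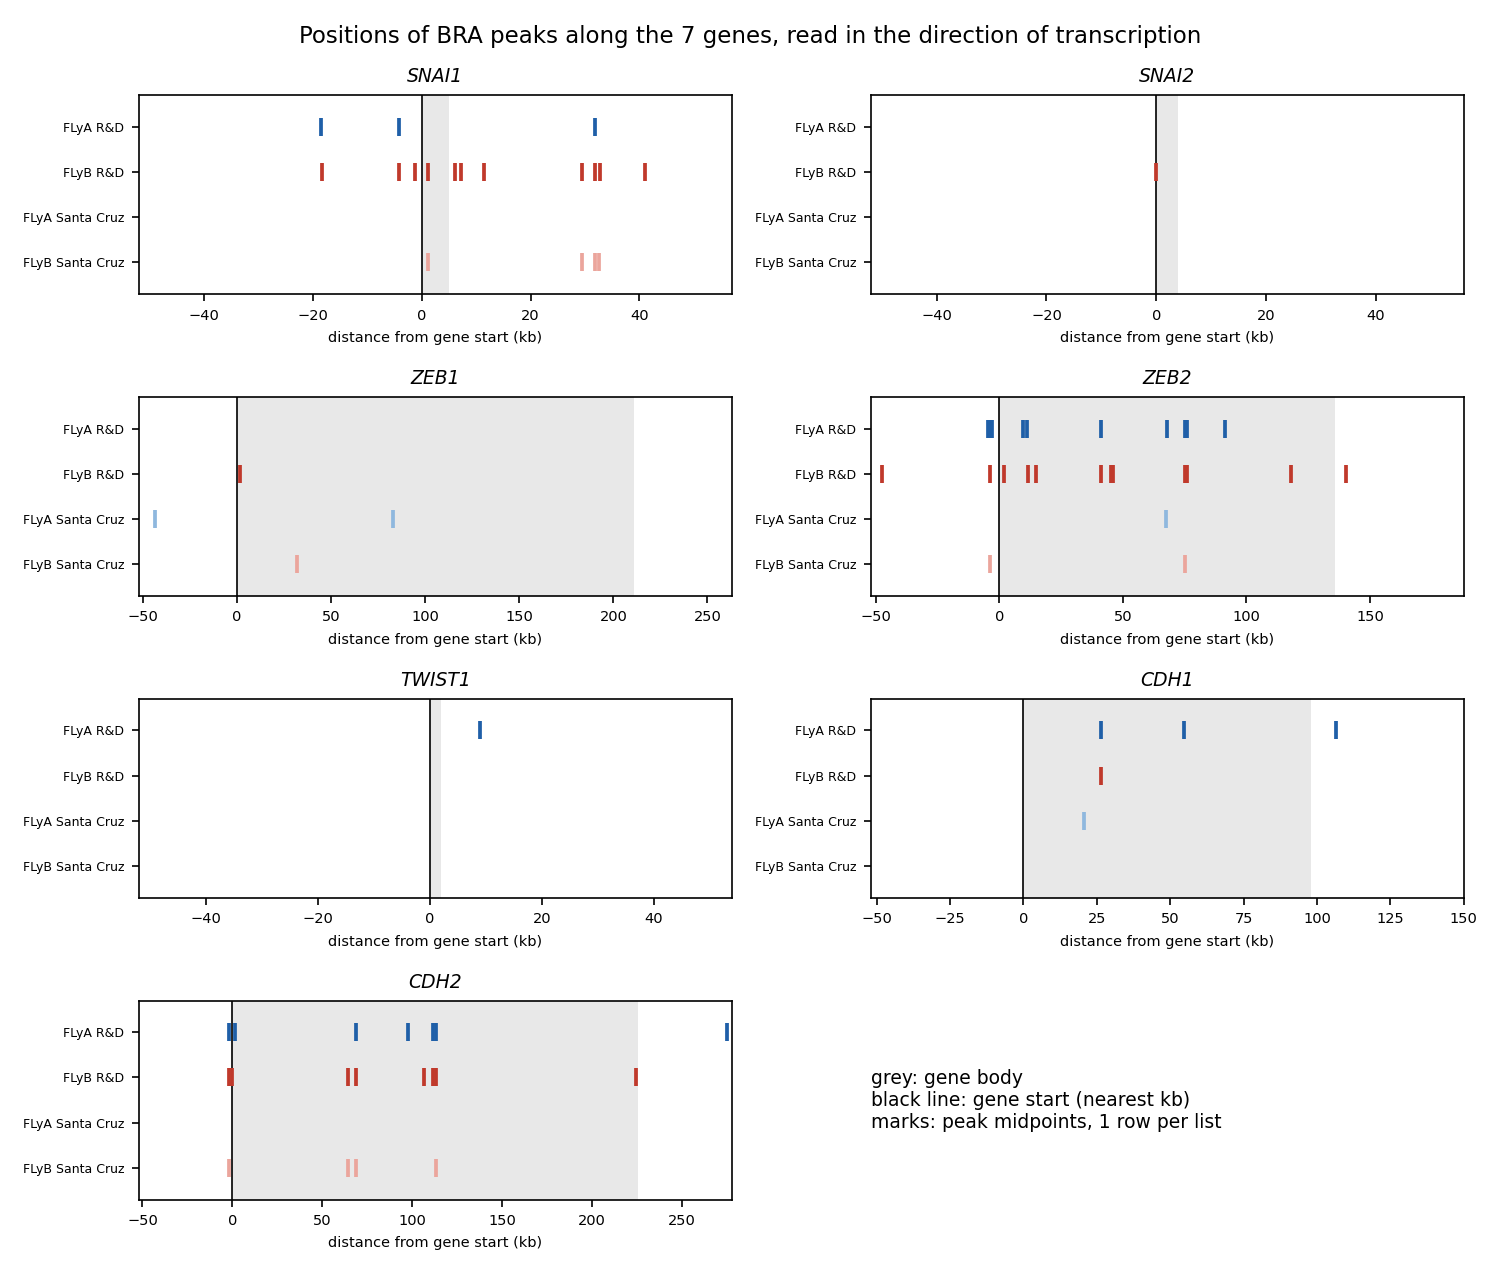
Midpoints of BRA peaks along each gene, with distance from the gene start in kb in the direction of transcription on the x axis and 1 row per peak list. At SNAI1 both media have peaks on either side of the gene and FLyB alone has one inside it, ZEB2 and CDH2 have common and medium-specific sites, and CDH1 has no peak near its start.

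Peaks near the gene starts were counted next. Within 5 kb of a start the R&D Systems lists held 6 FLyA peaks, of which 3 were at ZEB2, 2 at CDH2 and 1 at SNAI1, and 9 FLyB peaks, of which 3 were at SNAI1, 2 each at ZEB2 and CDH2 and 1 each at SNAI2 and ZEB1. TWIST1 and CDH1 had none in either medium. Over the whole windows, gene bodies held 14 of the 24 FLyA peaks and 18 of the 34 from FLyB. The upstream flanks held 6 and 8, and the downstream flanks 4 and 8. Gene bodies made up 136 of 236 kb at ZEB2, 226 of 326 kb at CDH2 and 5 of 105 kb at SNAI1. Neither these counts nor those within 5 kb were set beside the whole lists or shares of sequence. A preference for gene bodies or starts was thus not tested. The peaks at the starts of SNAI2 and CDH2 are counted as upstream, although the precision of the gene starts does not settle on which side they lie. Of the downstream FLyB peaks, 7 were at SNAI1.

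The media were then compared over the 7 genes together. Among the 24 FLyA member peaks, 12 had no partner in the FLyB list (50%, 95% interval 29.1 to 70.9%), against 67.0% in the whole list. Among the 34 FLyB member peaks, 22 had no partner in the FLyA list (64.7%, 46.5 to 80.3%), against 63.9% in the whole list. Both whole-list shares lay inside the members' intervals. The sharing of sites between media at these genes was thus within counting error of that in the whole lists.

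**Figure D3:**
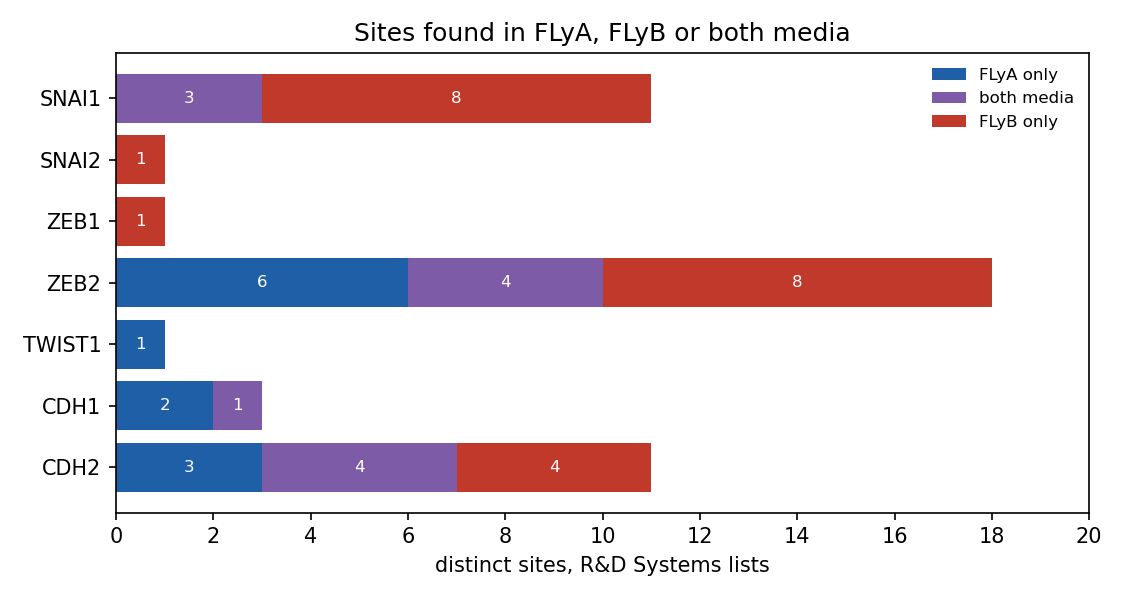
Distinct R&D Systems sites at each gene (y axis), counted on the x axis and coloured by the medium in which they were listed. SNAI1 has 8 FLyB-only and 3 common sites and none in FLyA only, and ZEB2 has all 3 kinds.

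Overlapping peaks of 400 bp have midpoints less than 400 bp apart by definition. At the 12 common sites the midpoints of the FLyA and FLyB peaks were 11 to 111 bp apart, with a median of 30.0 bp, and 7 pairs lay within 50 bp. Over the 8572 overlapping pairs of the whole lists the median was 38.0 bp, and 85.1% were at most 111 bp apart. The closest pairs were at SNAI1 (11 bp, 32 kb after the start) and CDH2 (12 bp, at 112 kb), and the widest was at ZEB2 (111 bp, at 76 kb). Peaks of one medium only often had a neighbour in the other. Of the FLyA-only peaks, 8 of 12 had an FLyB peak within 10 kb (24.4% in the whole list), and of the FLyB-only peaks 14 of 22 had an FLyA peak within 10 kb (31.8% in the whole list). All of these peaks were at SNAI1, ZEB2 and CDH2, whereas the single peaks at SNAI2, ZEB1 and TWIST1 were over 100 kb from the other medium. Neighbours are more frequent wherever peaks are dense, as at SNAI1, ZEB2 and CDH2. The whole-list shares were not matched for density, so nearness beyond that given by density was not tested.

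Agreement between the antibodies was examined in the same way. The Santa Cruz lists held 2436 peaks in FLyA and 3007 in FLyB, against 25864 and 23687 in the R&D Systems lists. Most R&D Systems peaks could therefore have no Santa Cruz partner, whatever the agreement between the antibodies. Of the 34 R&D Systems FLyB peaks, 10 overlapped a Santa Cruz FLyB peak (29.4%, 15.1 to 47.5%), against 10.0% of the whole list. These were 4 at SNAI1, 4 at CDH2 and 2 at ZEB2, where peaks were dense. The whole-list share was not matched for density, so agreement particular to these genes was not tested. Conversely, 10 of the 11 Santa Cruz FLyB peaks at the 7 genes fell on an R&D Systems FLyB peak (90.9%, 58.7 to 99.8%), against 79.0% of that list. The exception was the Santa Cruz FLyB peak in ZEB1. In FLyA, 1 of the 24 R&D Systems peaks overlapped a Santa Cruz FLyA peak (4.17%, 0.105 to 21.1%), against 3.02% of the whole list, and 1 of the 4 Santa Cruz FLyA peaks fell on an R&D Systems FLyA peak (31.9% of that list). R&D Systems peaks with a Santa Cruz peak of the same medium thus numbered 10 in FLyB and 1, at ZEB2, in FLyA.

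The Santa Cruz FLyB peaks did not keep to FLyB-only sites. They covered 6 of the 12 member FLyB peaks that were shared with FLyA (50%, 21.1 to 78.9%, against 14.6% of such peaks in the whole list) and 4 of the 22 FLyB-only peaks (18.2%, 5.19 to 40.3%, against 7.47%). Counted from the R&D Systems FLyA list, 6 of its 24 member peaks overlapped a Santa Cruz FLyB peak (25.0%, 9.77 to 46.7%), against 5.01% of the whole list and against the 1 that overlapped a Santa Cruz FLyA peak. The difference between these 2 overlaps was not tested. The 6 FLyA peaks with a Santa Cruz FLyB peak lay at the same common sites as the 6 shared FLyB peaks, so these counts are not independent. The whole Santa Cruz lists held 2436 peaks in FLyA and 3007 in FLyB, and the part of list size in these overlaps was not tested either.

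**Figure D4:**
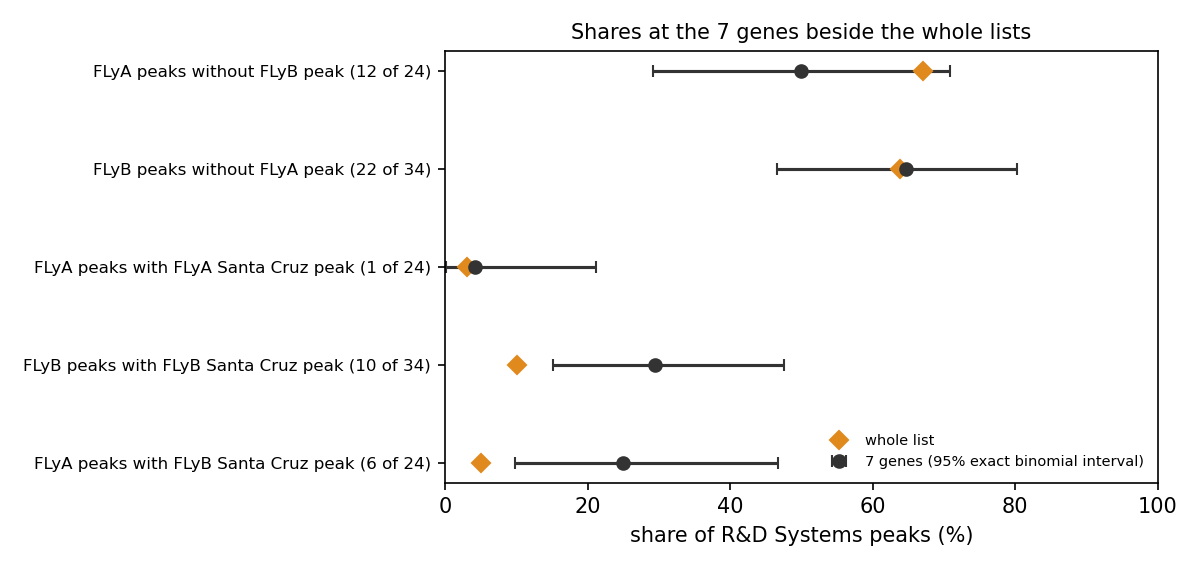
Shares (x axis, in percent) of R&D Systems peaks at the 7 genes (circles, with 95% exact binomial intervals) and in the whole lists (diamonds) for 5 comparisons (y axis, with the counts at the 7 genes). The whole-list share lies inside the interval for the first 3 comparisons and below it for both comparisons with the Santa Cruz FLyB list. Those comparisons are not independent, since the FLyA peaks concerned lie at common sites that the FLyB comparison also counts.

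Of the 46 sites, 11 were thus found with both antibodies in at least one medium. At SNAI1 these were 3 FLyB-only sites and 1 common site, at CDH2 1 FLyB-only site and 3 common sites, and at ZEB2 2 common sites and 1 FLyA-only site. None was at SNAI2, ZEB1, TWIST1 or CDH1, whose peaks rest on a single antibody.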

How the data were processed

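Peak lists of BRA ChIP-seq in H9 cells were analysed, 1 per medium and antibody. The submitters' processing notes name Bowtie 0.12.7 and hg19, and the methods name sequencing on a Genome Analyzer II and peak calling with MACS. The peak lists used here, as deposited by the authors, hold positions only, and the track lines of the Santa Cruz lists name a MACS threshold, which the R&D Systems lists do not. Fold enrichments in the study were normalised to input. Whether input was the control in peak calling and the handling of duplicate reads are not given in the sources used here. A stricter threshold in one list would lower its counts at every gene.

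The genes, windows and comparisons were chosen with earlier results of these data known. All 7 genes are named. Gene bodies are the given windows less 50 kb on each side. Strands are background knowledge, and those of ZEB1, ZEB2 and CDH2 are also given by the promoter table. Overlaps were counted with Python 3.11.15 and NumPy 2.4.6, checked with bedtools 2.31.1 and tested on simulated data. Intervals came from SciPy 1.17.1 and figures from matplotlib 3.10.9. Tiles ran from the first to the last peak of each autosome and of the X chromosome. Peaks at other EMT genes and motifs under peaks were planned, but need an annotation and a genome of hg19 and were not run. Neighbouring genes were taken by name only from the GRCh38.p14 table.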

Additional observations from a re-analysis of the deposited data

How the results depend on the processing

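The share of peaks found in 1 medium only stayed within its interval under each of the alternatives run. This is a weak check, since the intervals are wide (29.1 to 70.9% in FLyA and 46.5 to 80.3% in FLyB). The alternatives also reuse most of the same peaks. In FLyA it ranged from 41.7% with peaks at most 500 bp apart to 57.1% without SNAI1, and in FLyB from 60.9% without SNAI1 to 69.2% without CDH2. Leaving out SNAI1, ZEB2 or CDH2 was chosen after seeing the data. The overlap of FLyA peaks with the Santa Cruz antibody moved to 0% when 200 bp of overlap was required, since the single ZEB2 site overlapped by 179 bp. In FLyB it was 29.4% to 32.4%. Counts over all 7 genes came to 22 FLyA and 29 FLyB R&D Systems peaks with 20 kb on each side and to 33 and 50 with 100 kb. Of 84 alternative counts per gene and list, 9 moved, all with windows of 20 or 100 kb, which hold other lengths of sequence by construction. At SNAI1, 20 kb on each side left 7 R&D Systems FLyB peaks and 1 Santa Cruz FLyB peak, and 100 kb gave 18 FLyB and 7 FLyA peaks. The media can be paired within each antibody, but no paired test was run. There was 1 library per medium and antibody, the Santa Cruz lists hold far fewer peaks, and the labels give no replicate numbers. The values of both media are given within each antibody. Depth is unknown.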

Other observations

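With 100 kb on each side of the genes instead of 50 kb, the R&D Systems lists held 33 FLyA and 50 FLyB peaks. SNAI1 gained the most, with 18 FLyB peaks against 7 FLyA peaks. At SNAI2 the wider window held 4 FLyB peaks and 1 FLyA peak, at ZEB1 3 FLyB peaks and still no FLyA peak, and at CDH1 3 FLyB peaks and 4 FLyA peaks. ZEB2 then had 12 peaks in each medium. TWIST1 still had its single FLyA peak.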
